A study of Mus musculus with 7 samples.

Results

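GSC1 is a mouse glioblastoma stem-like cell line, and its 4 brain tumours differed in marker genes of brain regions. They were divided, 2 a side, on a value chosen from the data: Hoxb5, a homeobox gene of the hindbrain and spinal cord, at 10 CPM or more, CPM being a gene's share of all gene counts of a library on a fixed scale. Hoxb5 was at 189.5 and 48.1 CPM in GSC1 tumours 3 and 4, the hindbrain side, and at 0 in GSC1 tumours 1 and 2, the other side, so no tumour lay near the limit. The 4 tumours are part of 7 in all. GSC1 carries the changes labelled lgT and Ras, and the 3 tumours of GSC2, labelled shp53, Nf1-/- and CDK4, are given as reference values. Reads of host tissue and of tumour cells cannot be told apart in these tables, and the names of the sides describe their marker genes. Both lines are tumour cells derived from neural stem cells, with the subventricular zone of the forebrain as the labelled source. They were grown in culture, injected orthotopically into nude mice, which lack T cells but still have B cells, natural killer cells and macrophages, and the resulting tumours were sequenced as bulk RNA. The labels used here give no age, sex or injection site. The tumours are described as independent, but the labels name no animals or cell clones, and each combination of changes exists in 1 line.

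The embryonic neural tube is divided along its length, and regional transcription factors preserve that division in adult cells. HOX genes lie in 4 chromosomal clusters, and their paralog number, counted along the cluster, follows position along the body: low numbers reach far forward into the hindbrain and high numbers are confined to the trunk and tail. Emx2 and Otx1 mark the forebrain, from which the subventricular zone comes. The medulla and spinal cord are known for glycine as a fast inhibitory transmitter, for noradrenaline neurons and for thickly myelinated axons, and the cerebellum for granule and Purkinje cells.

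Because the sides were defined from a value measured in the same libraries, differences between them are described and not tested. Levels below are CPM on TMM-scaled library sizes, and Hoxb5 itself is left out of them. A gene was called higher where the lower of tumours 3 and 4 lay at least 2-fold above the higher of tumours 1 and 2 on the log2(CPM + 0.5) scale, and lower in the mirror case. The distance between those nearest tumours is the gap. Of 14571 genes with a mean of at least 1 CPM over the 4 tumours, 2200 were higher (15.1%) and 1639 lower (11.2%). The sides did not overlap at all for 5780 genes with higher and 6085 genes with lower values in tumours 3 and 4. Against all other 5 tumours, GSC2 included, 318 genes were higher (2.18%) and 168 lower (1.15%) by the same 2-fold gap. The median difference of all genes between the sides was -0.02 (log2). Since a gene that passes the level limit only through tumours 3 and 4 has to differ, counts over lists with low genes are given over all members found in the tables, called with no level limit. Of the 21775 genes with any read in the GSC1 tumours, 2338 were higher (10.7%) and 1693 lower (7.77%). List members without such a read stay in the list totals, so the 2 bases differ in that. In bulk RNA fewer cells of a type and less RNA per cell cannot be told apart.

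The 4 libraries held 21635117 to 32643408 reads counted on genes, and the 3 of GSC2 held 18643155 to 27020814. The stem and glioma progenitor genes Sox2, Nes and Olig2 were detected in all 7 tumours, Olig2 at 53.9, 45.4, 55.8 and 38.1 CPM in GSC1 tumours 1 to 4. Transcript length also moved with the division. Genes with transcripts of at least 8000 bases, relative to those of at most 2000 bases, were at 0.01, 0.53, -0.42 and -0.35 (log2) in GSC1 tumours 1 to 4 and at 0.39, 0.65 and -0.67 in GSC2 tumours 1 to 3. Among genes of at least 8000 bases 12.2% were higher and 21.9% lower on the hindbrain side, and among genes of at most 2000 bases 17.1% and 5.67%. What share of the differences between the sides goes with transcript length was not tested beyond the values given here and for single groups below.

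**Figure D1:**
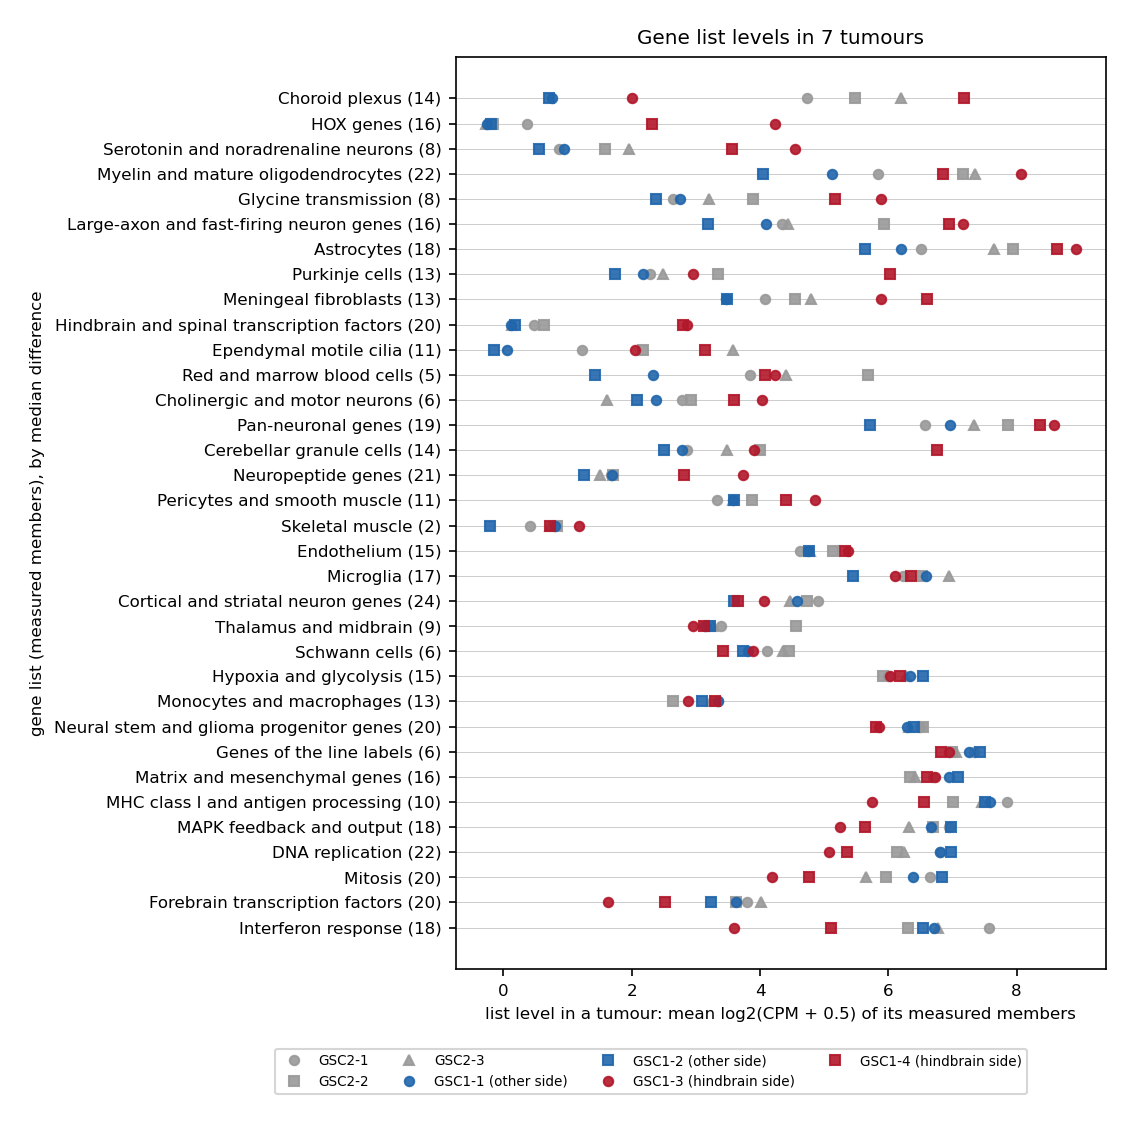
Level of each of 34 gene lists (rows; members past the level limit in brackets) in each tumour, as the mean log2(CPM + 0.5) of those members, ordered by the median difference between the sides. Members can pass the limit through tumours 3 and 4 alone, which in part builds in the difference of lists with low genes. The HOX level in tumours 3 and 4 is 4.23 and 2.32 with the limit and 2.14 and 1.04 without it. Red symbols are the hindbrain-side tumours, blue the other GSC1 tumours and grey GSC2; the choroid plexus level separates the 2 red symbols (2.00 and 7.18), and the interferon level puts both of them (3.59 and 5.11) under the other 5.

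HOX genes of low and middle paralog number were higher on the hindbrain side. Of the 37 HOX genes found, 15 were higher, 0 lower and 10 higher than in all other 5 tumours, and 16 passed the level limit, most of them through tumours 3 and 4. Hoxc4 was at 35.4 and 13.4 CPM in tumours 3 and 4 and had no read in the other 5. Hoxb2 was at 20.6 and 7.71 CPM and Hoxc5 at 22.3 and 5.80 CPM in tumours 3 and 4, again with no read elsewhere. Set against a floor of 3 reads per library, Hoxc4 was at least 87.7-fold, Hoxb2 at least 50.5-fold and Hoxc5 at least 38.1-fold higher than in any other tumour. The genes of the Hoxa cluster were not silent elsewhere. Hoxa5, which acts in respiratory and cervical regions, was at 2.14, 2.13, 114 and 26.3 CPM in GSC1 tumours 1 to 4 against 6.91, 2.98 and 1.35 CPM in GSC2. Hoxa3 was at 3.53, 3.49, 14.5 and 7.99 CPM, with GSC2 tumour 1 at 8.64 CPM, above tumour 4.

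Paralog number also separated the hindbrain-side tumours from each other. The ratio of the CPM in tumour 3 to that in tumour 4 lay between 1.77 and 2.67 for the genes of paralog groups 1 to 3, between 2.65 and 3.42 in group 4, between 3.84 and 4.34 in group 5 and between 7.87 and 12.7 in group 6. It was 20.6 for Hoxb7 and 22.8 for Hoxb8, and 1.20 for Hoxa7, which was low in all GSC1 tumours (0.782, 1.25, 0.913 and 0.761 CPM). Hoxb6 was at 53.8 and 5.38 CPM, and Hoxb8 at 31.5 and 1.38 CPM, in tumours 3 and 4. Hoxd8 had its highest value in tumour 2 (0.116, 0.918, 0.278 and 0 CPM), and Hoxb1 and Hoxc8 had no read. The 16 genes of paralog groups 9 to 13 reached at most 0.333 CPM, or 7 reads, in tumours 3 and 4, and 9 of the 37 genes had no read in any GSC1 tumour. Several HOX genes overlap antisense transcripts, and because the labels do not say whether the counting used strand, reads of the 2 strands cannot be told apart.

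**Figure D2:**
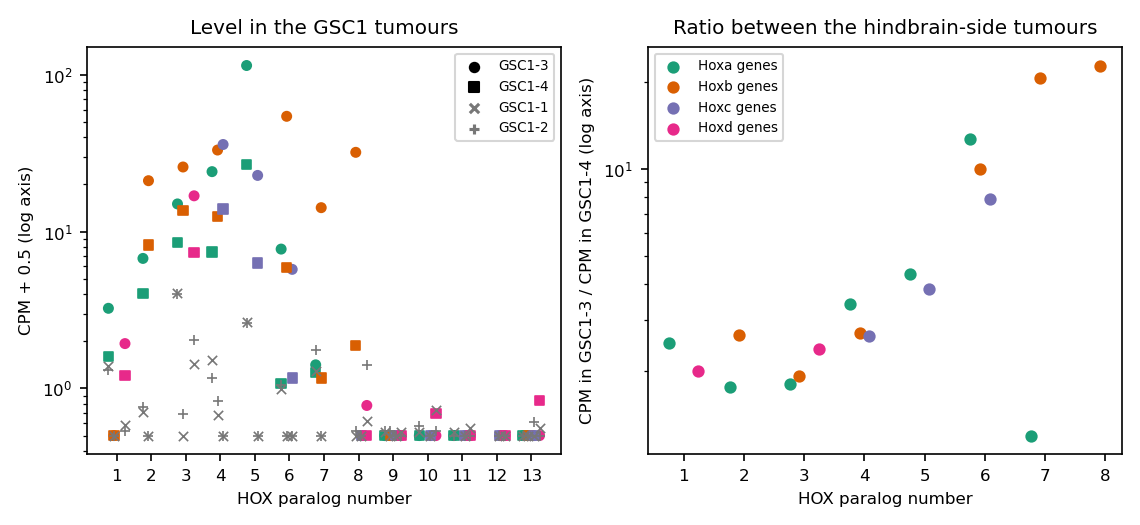
Left, CPM + 0.5 (log axis) of each HOX gene except Hoxb5 by paralog number in the 4 GSC1 tumours; right, ratio of CPM in GSC1-3 to GSC1-4 (log axis) for genes with more than 3 reads in both. Colours are the 4 clusters; the ratio is 1.77 to 2.67 in groups 1 to 3 and 22.8 at Hoxb8, while Hoxa7 stands apart at 1.20.

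Transcription factors of hindbrain and spinal cord neurons were higher in 15 of 28 and lower in 0. With no level limit 10 were higher than in all other 5 tumours, against 1.55% of all genes with any read in GSC1. Among the 20 past the limit, which tumours 3 and 4 alone can meet, 9 were, and 14 without tumour 4. The shares of all genes past the limit were 2.18% and 5.06%. The higher genes include factors of dorsal and commissural interneurons. Mab21l2, a gene of the dorsal midbrain and hindbrain, had the largest gap of all genes (6.43), at 0.0290, 0, 45.1 and 56.5 CPM in GSC1 tumours 1 to 4 and at most 0.701 CPM in GSC2. Lbx1, which specifies dorsal inhibitory interneurons, was at 19.9 and 6.09 CPM in tumours 3 and 4 against at most 0.404 CPM in the other 5. Evx1, a gene of commissural interneurons, was at 7.51 and 2.38 CPM and unread elsewhere. Skor1, a corepressor that works with Lbx1, was at 13.4 and 11.3 CPM against at most 0.232 CPM, a ratio of 48.9 between the nearest tumours. Barhl1, found in granule cell precursors and other rhombic lip derivatives, was at 4.41 and 10.3 CPM, so here tumour 4 was the higher. En2, an engrailed gene of the midbrain and cerebellum, was highest in tumour 4 (0.174, 0.331, 0.556 and 29.2 CPM in GSC1 tumours 1 to 4) and was not called. Irx5, Tal1 and Lhx1 overlapped between the sides, and Atoh1, a factor of rhombic lip precursors, had no read in any of the 7 tumours.

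Of 9 glycine transmission genes 6 were higher and 0 lower. Slc6a5, which loads glycine into neurons and so marks glycinergic cells, was at 0.724, 0.882, 135 and 81.2 CPM in GSC1 tumours 1 to 4 against 0.508, 1.89 and 0 CPM in GSC2. The nearest tumours of the 2 sides were 92.1-fold apart. Among the receptor subunits, Glra1, the adult alpha subunit, was at 9.89 and 5.57 CPM against 0.463 and 0.147 CPM. Glrb, the beta subunit that binds the scaffold gephyrin, was at 340.4 and 247 CPM against 34.8 and 14.3 CPM, and the gene of gephyrin itself, Gphn, was at 37.1, 38.9, 49.9 and 42.3 CPM and not called. Slc32a1, the vesicular carrier that GABA and glycine neurons share, was at 23.6, 12.2, 144 and 146 CPM.

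Of 11 genes of serotonin and noradrenaline neurons 7 were higher on the hindbrain side and 0 lower. Dbh, which makes noradrenaline from dopamine, was at 0.0869, 0.0367, 23.2 and 11.4 CPM in GSC1 tumours 1 to 4 and at most 0.153 CPM in GSC2. Th, the first enzyme of the pathway, was at 0.985, 0.661, 29.5 and 12.8 CPM, and Slc6a2, the noradrenaline transporter, at 0.637, 0.404, 9.93 and 4.71 CPM. Ddc, the decarboxylase that both pathways share, was at 0.753, 0.478, 55.0 and 16.7 CPM. Tph2, the serotonin-making hydroxylase of the brain, was not called, at 0.724, 0.735, 0.755 and 0.476 CPM, and the raphe factor Fev reached 0.0397 CPM. Slc6a4, the serotonin transporter, was at 0.376, 0.808, 0.238 and 1.62 CPM and also not called, as was Gch1, which makes the cofactor of these hydroxylases, at 14.9, 16.4, 13.7 and 9.52 CPM. Of 9 cholinergic and motor neuron genes 4 were higher and 2 lower. Chat, which makes acetylcholine, was at 1.07, 1.54, 11.6 and 6.42 CPM and the choline transporter Slc5a7 at 1.04, 2.50, 37.7 and 21.6 CPM. Prph, an intermediate filament of motor and peripheral neurons, was at 5.10, 0.588, 56.8 and 24.9 CPM, but the somatic motor factor Mnx1 had no read in any tumour and Isl1 was at 1.19, 1.07, 1.31 and 0.381 CPM. Calca and Calcb, the genes of the calcitonin gene-related peptides, were lower on the hindbrain side, Calca at 50.1, 46.1, 9.81 and 22.0 CPM.

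Neuropeptide genes split within the list, with 9 of 27 higher, 0 lower and 18 not called, and 7 higher than in all other 5 tumours. Without tumour 1 or without tumour 4 the first count was 14 of the 21 past the level limit, and without tumour 4 the last was 12. The shares of all genes past the limit were 21.0% and 19.6% for the first count and 5.06% for the last. Cartpt was at 1.25, 1.32, 34.5 and 27.2 CPM in GSC1 tumours 1 to 4 and at most 0.876 CPM in GSC2. Adcyap1, the gene of the peptide PACAP, was at 2.17, 0.955, 79.2 and 40.9 CPM, and Gal, the gene of galanin, a peptide of noradrenaline neurons among others, at 5.15, 4.78, 107 and 39.1 CPM. Npff, a peptide of the dorsal horn and the nucleus of the solitary tract, was at 0.145, 0.0367, 10.0 and 3.76 CPM. All of these were higher in tumour 3 than in tumour 4. Members not called included Sst, the gene of somatostatin, at 35.9, 13.7, 177 and 53.2 CPM without overlap, and Npy, at 26.2, 12.3, 21.9 and 8.80 CPM, and Cck, at 29.8, 5.03, 50 and 16.5 CPM, both overlapping. The hypothalamic genes Hcrt and Oxt had at most 0.0397 CPM in tumours 3 and 4.

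Genes of large-axon and fast-firing neurons were all higher on the hindbrain side, 16 of 16, with a median difference of 3.08. The list was chosen with earlier results of these data known, so the full count is no independent sign. Sncg, the gene of gamma-synuclein, had the widest gap of them (5.48), at 0.550, 0.735, 75.0 and 54.5 CPM in GSC1 tumours 1 to 4 and 2.85, 3.47 and 6.71 CPM in the GSC2 tumours. Pvalb, a calcium buffer of fast-spiking cells, was at 9.35, 1.65, 232 and 282 CPM. Kcnc1, a potassium channel gene of rapid firing, was at 26.7, 10.5, 118 and 151 CPM, and Kcng4, a modifier subunit, was at 1.62, 0.404, 64.6 and 72.8 CPM. Vamp1, the synaptobrevin of brainstem and spinal synapses, was at 16.9, 9.11, 682 and 366 CPM. Slc17a6, the vesicular glutamate carrier of subcortical neurons, was at 3.5, 2.57, 199 and 97.8 CPM, but GSC2 tumour 2 reached 124 CPM, above tumour 4. Against all other 5 tumours 6 of the 16 were higher by the 2-fold gap. Slc17a7, the glutamate carrier of cortical and granule neurons, was at 199.5, 37.9, 149 and 344 CPM and overlapped.

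General neuronal genes were higher too. Of 19 pan-neuronal genes 13 were higher and 0 lower, and their level was 6.96, 5.71, 8.59 and 8.36 in GSC1 tumours 1 to 4 and 6.57, 7.87 and 7.33 in GSC2. Snap25, a core synaptic fusion protein, was at 220.3, 53.3, 1578 and 1384 CPM in GSC1, and GSC2 reached 598 CPM. The part of neuronal content in the regional differences was not tested. Against all other 5 tumours 5 of the 19 were higher, and 2 when libraries were scaled by total counts.

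Of 22 myelin genes 19 were higher and 0 lower, but 0 were higher than in all other 5 tumours (5 without tumour 4). Mog, on the outer face of the sheath, was at 15.8, 5.51, 327 and 106 CPM in GSC1 tumours 1 to 4, with tumour 4 between GSC2 tumours 2 and 3 (93.7 and 139.9 CPM). Tumour 3 was above all other tumours. Pmp2, a protein of peripheral myelin, was at most 0.143 CPM in the 4 tumours, and of 11 Schwann cell genes 1 was higher and 2 lower. Dhh, a Hedgehog ligand of Schwann cells and other cells, was one of the 2, at 28.8, 38.5, 6.75 and 5.90 CPM against 46.9, 46.7 and 41.6 CPM in GSC2.

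Astrocyte genes gave 14 of 18 higher, 0 lower and 4 higher than in all other 5 tumours (7 without tumour 4). Agt, which encodes angiotensinogen and is known for high levels in hindbrain and diencephalic astrocytes, was at 2.40, 0.845, 441 and 165 CPM in GSC1 tumours 1 to 4 against 6.51, 63.1 and 19.0 CPM in GSC2. Gfap, the astrocyte filament, separated the sides less: 1178, 457, 6911 and 5315 CPM. Slc6a11, an astrocytic GABA transporter, was at 17.0, 13.1, 750.5 and 469 CPM, and Aldoc, an aldolase of astrocytes and Purkinje cells, at 92.5, 45.5, 2318 and 2736 CPM. Itih3 was at 12.9, 9.07, 352 and 243 CPM. Dao, which breaks down D-serine and is known from hindbrain astrocytes, was no list member but had one of the 12 widest gaps of all genes. It was at 19.7 and 21.9 CPM in tumours 3 and 4, without a read in tumours 1 and 2, and at most 0.1 CPM in GSC2. Sox9, Gja1, Mfge8 and Fgfr3 were not called, Sox9 at 107, 182, 94.8 and 104 CPM.

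Tumours 3 and 4 differed from each other most in cerebellar and choroid plexus genes. An 8-fold difference or more was seen in 76 genes with tumour 4 above tumour 3 (0.522% of those measured) and in 8 with tumour 3 above tumour 4 (0.0549%). Cbln3, a cerebellin of granule cells, was at 1.31 and 245 CPM in tumours 3 and 4, Gabra6, their GABA receptor subunit, at 1.15 and 115 CPM and the Purkinje cell gene Pcp2 at 0.0397 and 67.4 CPM. GSC2 gave at most 0.210 CPM of Cbln3 and no read of Gabra6 or Pcp2. Calb1, which Purkinje cells share with other neurons, differed less, at 79.4 and 236 CPM. The granule cell level was 2.79, 2.51, 3.91 and 6.76 and the Purkinje cell level 2.17, 1.74, 2.95 and 6.03 in GSC1 tumours 1 to 4. Of 14 granule cell genes 8 were called higher and of 13 Purkinje cell genes 8, and with tumour 3 left out 11 and 11. Zic1, shared by granule cells, dorsal hindbrain and meninges, was at 1.91, 2.31, 135 and 306 CPM, but GSC2 tumours 2 and 3 had 104 and 127 CPM.

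Choroid plexus, the epithelium that secretes cerebrospinal fluid, was read mainly in tumour 4. Ttr, which carries thyroxine in that fluid, was at 3.01, 0.551, 28.7 and 8159 CPM in GSC1 tumours 1 to 4 against 2025, 2648 and 4575 CPM in GSC2. Kcne2, a potassium channel subunit of the epithelium, was at 0, 0, 0.0397 and 83.8 CPM and Folr1, its folate receptor, at 0.116, 0, 1.51 and 158 CPM. Ttr and Folr1 were called higher and Kcne2 was not, and in all 3 tumour 3 lay under the GSC2 tumours. The list counted 7 of 14 higher and 0 higher than in all other 5 tumours, and with tumour 3 left out 13 and 9. Genes of motile cilia, which line the ventricles, were higher in 11 of 13, with Foxj1, their master regulator, at 7.70, 4.63, 24.3 and 43.3 CPM, and GSC2 tumour 3 above all GSC1 tumours (62.8 CPM).

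The genes highest in tumour 3 relative to tumour 4 included Hoxb6, Hoxb7 and Hoxb8. With them was Prrxl1, a factor of dorsal horn and sensory neurons, at 0, 0.0367, 8.02 and 0.381 CPM in GSC1 tumours 1 to 4. Tac2, a tachykinin gene, was at 1.80, 0.147, 8.10 and 0.428 CPM. Gdpd3 was at 0.405, 5.11, 28.6 and 0.190 CPM, a pattern that followed neither side. Tumours 1 and 2 differed 8-fold in 2 genes (0.0137%) with tumour 1 above and in 0 (0%) with tumour 2 above. Fcrls, a microglial gene, was at 112 and 7.31 CPM in tumours 1 and 2, and the neurosecretory gene Chga, just under that limit, at 71.2 and 10.3 CPM.

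**Figure D3:**
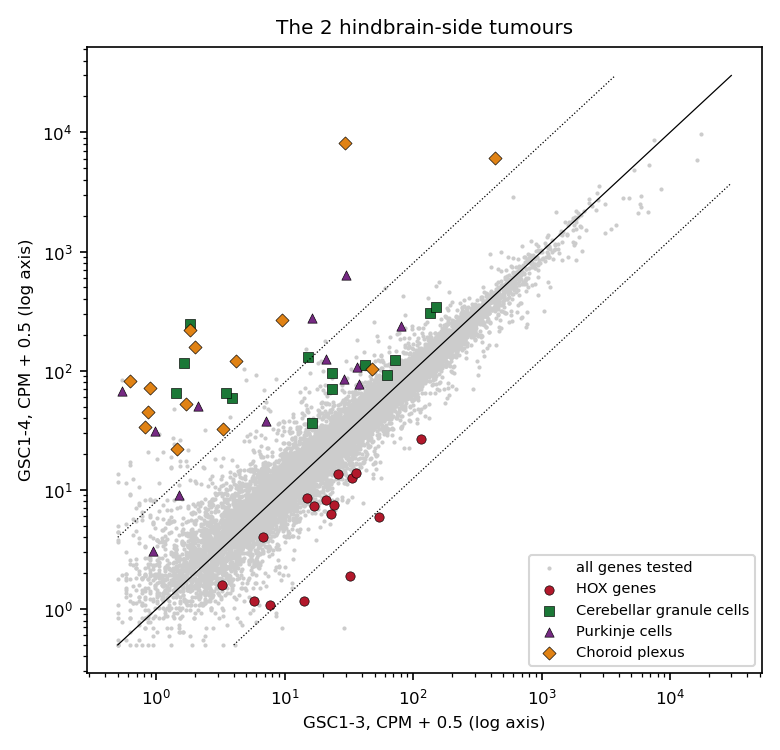
CPM + 0.5 of each gene in GSC1-3 against GSC1-4 (log axes), with 4 gene lists marked; the solid line is equality and the dotted lines 8-fold differences. HOX genes lie below equality, at most 22.8-fold, and choroid plexus, granule and Purkinje cell genes above it, with Ttr at 28.7 and 8159 CPM.

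Forebrain transcription factors were lower on the hindbrain side. Of the 29 found, 14 were lower, 0 higher and 11 lower than in all other 5 tumours. Among the 20 past the level limit the higher count was 2 without tumour 1 and 3 without tumour 3. The shares of all genes past the limit were 21.0% and 18.0%. Emx2, a cortical and stem cell patterning gene, was at 18.6, 18.5, 1.55 and 3.47 CPM in GSC1 tumours 1 to 4 against 46.6, 27.6 and 24 CPM in GSC2. Lhx2, which selects cortical identity, was at 40.9, 45.5, 10.1 and 9.23 CPM. Dlx1, an interneuron factor, was at 22.3, 22.0, 3.57 and 4.38 CPM. Tbr1, of cortical projection neurons, was also lower, at 18.0, 4.26, 0.119 and 0.666 CPM. Members not called included Meis2, at 53.7, 54.7, 48.5 and 47.7 CPM, and Neurod2, which granule cells also use, at 8.98, 2.61, 8.30 and 35.1 CPM. Otx2 and Eomes, known from choroid plexus and unipolar brush cells, were highest in tumour 4 (44.8 and 16.7 CPM).

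Neuron genes of the cortex and striatum did not follow as a group, with 2 of 25 higher and 4 lower. Among the 24 past the level limit the higher count was 5 without tumour 1 and 4 without tumour 4. The lower count among them was 7 without tumour 2. The shares of all genes past the limit were 21.0%, 19.6% and 12.3%. Ddn, found in dendrites of forebrain neurons, gave 115, 47.8, 2.66 and 0.761 CPM in GSC1 tumours 1 to 4 against 138, 129 and 152 CPM in GSC2, the widest negative gap against all other 5 tumours (-3.93). The striatal receptor genes Drd1 (7.18, 4.96, 1.79 and 0.0476 CPM) and Adora2a (11.6, 10.5, 3.69 and 2.28 CPM) were lower, and Camk2a, the kinase of excitatory synapses, was at 291, 109.7, 153 and 69.9 CPM and overlapped. Lamp5 went the other way, at 7.04, 3.31, 97.7 and 73.8 CPM. Outside the lists, 2 potassium channel genes were among the genes lower than in all other 5 tumours, Kcnh3 at 16.6, 5.95, 0.715 and 0.190 CPM and Kcnj4 at 15.1, 8.96, 1.59 and 0.809 CPM. Cdh6, an adhesion gene, was at 23.6, 62.0, 3.93 and 4.38 CPM. Of 15 thalamus and midbrain genes 1 was higher and 3 lower. Without tumour 4, 3 of the 9 past the level limit were higher, against 19.6% of all genes past it.

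Interferon-response genes formed the group with the lowest median difference (-2.40). Type I interferon activates transcription factors that bind the interferon-stimulated response element in front of antiviral genes. Of 18 measured genes 14 were lower on the hindbrain side, 0 higher and 7 lower than in all other 5 tumours. All 18 were lower without overlap of the sides, but so were 41.8% of all 14571 genes, with 39.7% higher without overlap. The upstream bases of Isg15 and Ifit1 are shown because these genes carry that element, written GAAANNGAAA and searched on both strands, in the 250 bases before the RefSeq start (GRCm38.p6; 5′ to 3′ on the gene's strand, matches in capitals). Isg15 lies on chromosome 4 at chr4:156200819-156201068 (minus strand) and Ifit1 on chromosome 19 at chr19:34640639-34640888 (plus strand).
Isg15: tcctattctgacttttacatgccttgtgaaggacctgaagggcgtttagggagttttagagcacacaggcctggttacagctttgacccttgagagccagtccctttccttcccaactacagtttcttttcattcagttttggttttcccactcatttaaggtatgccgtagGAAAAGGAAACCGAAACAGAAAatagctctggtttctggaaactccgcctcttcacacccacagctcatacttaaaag
Ifit1: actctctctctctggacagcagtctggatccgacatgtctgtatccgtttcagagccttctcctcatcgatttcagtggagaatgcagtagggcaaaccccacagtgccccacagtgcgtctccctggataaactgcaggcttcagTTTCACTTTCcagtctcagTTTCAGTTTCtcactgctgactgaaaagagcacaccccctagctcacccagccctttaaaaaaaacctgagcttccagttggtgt
Each of the 3 matches of Isg15 overlaps its neighbour, and the nearest begins 66 bases before the start. Of the 18 genes 14 had an entry, and 10 of them (71.4%) held at least 1 match, against 821 of 27025 promoters of the same length (3.04%). A match describes letters and shows no binding.

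Antiviral effectors were among the lower genes. Isg15, a ubiquitin-like modifier, was at 189, 130.4, 20.8 and 53.1 CPM in GSC1 tumours 1 to 4 against 242, 127 and 188 CPM in GSC2. Ifit1, which binds foreign RNA, was at 143, 118, 12.4 and 31.9 CPM against 243, 126 and 124 CPM in GSC2, so its nearest tumours were 3.70-fold apart in both comparisons. Mx1, a GTPase against viruses, was at 13.9, 9.92, 0.199 and 1.71 CPM, Rsad2, the enzyme viperin, at 34.6, 35.2, 2.74 and 12.6 CPM and Ifi44 at 135, 132, 8.14 and 29.6 CPM. In every one tumour 3 was lower than tumour 4. Irf7, a regulator of the response, showed the same order, at 363, 322, 18.6 and 119 CPM. The genes not called were Oas1a, Gbp2, Irgm1 and Cxcl10, Cxcl10 at 43.0, 41.3, 6.91 and 22.0 CPM. Tumour 4 was the nearer to the other side: without it 18 of 18 were lower and 17 lower than in all other 5 tumours.

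MHC class I genes, many of them interferon-induced, were lower in part, 4 of 10 measured with 0 higher, and 7 without tumour 4. H2-D1 was at 2336, 2387, 485 and 981 CPM in GSC1 tumours 1 to 4 against 1948, 1182 and 1554 CPM in GSC2, H2-K1 at 648, 679.7, 135 and 304 CPM, and the peptide pump gene Tap1 at 114, 126, 17.0 and 37.4 CPM. These histocompatibility genes have near-identical relatives, so the division of reads among them is uncertain. Nlrc5, their transcriptional activator, was at 35.9, 50.6, 2.03 and 4.09 CPM, with 10.0 CPM in GSC2 tumour 3. After removal of each library's trend with transcript length, 5 of the 10 MHC class I genes and 15 of the 18 interferon-response genes were lower. The part of transcript length was not tested beyond these counts. Outside the lists, Slfn8, a Schlafen gene induced by interferon, was at 20.6, 18.4, 2.14 and 3.00 CPM against 50.7, 23.3 and 15.9 CPM in GSC2.

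Immune cell markers are given beside the interferon genes, and their part in that result was not tested. Of 17 microglia genes 0 were higher and 1 lower. Without tumour 1, 5 were higher, against 21.0% of all genes past the level limit. The microglia level was 6.58, 5.45, 6.11 and 6.35 in GSC1 tumours 1 to 4. Csf1r, the survival receptor of microglia and macrophages, was at 277, 169, 257 and 271 CPM, and P2ry12, a receptor of resting microglia, at 32.9, 18.1, 53.2 and 49.1 CPM. Monocyte and macrophage genes gave 2 of 14 higher and 1 lower, against 10.7% and 7.77% of genes with any read in GSC1. Among the 13 past the level limit 4 were lower without tumour 2 and 3 without tumour 4. The shares of all genes past the limit were 12.3% and 17.0%. The 2 higher genes were F13a1, at 2.08, 2.61, 9.69 and 17.7 CPM, and Cd163, at 0.637, 0.661, 2.30 and 3.19 CPM, both known from border macrophages. The mast cell protease genes Mcpt1 and Mcpt2 headed the lower genes. Mcpt1 was at 34.3 and 20.9 CPM in tumours 1 and 2, without a read in tumours 3 and 4, and at most 1.53 CPM in GSC2. They are close copies, so their reads may be divided wrongly between them.

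**Figure D4:**
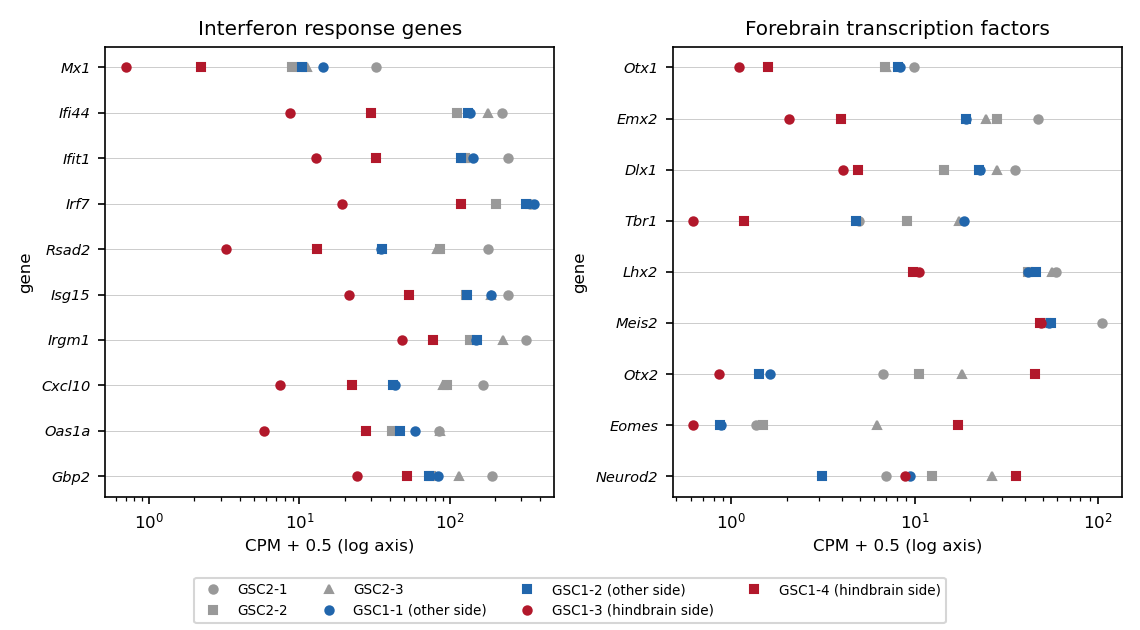
CPM + 0.5 (log axis) in each tumour of 10 of the 18 interferon-response genes (left) and 9 of the 20 forebrain transcription factors (right), those described in the text, ordered by the gap between the sides. Red symbols are the hindbrain-side tumours, blue the other GSC1 tumours and grey GSC2; Ifit1 is at 12.4 and 31.9 CPM in red and at least 118 CPM in blue.

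Genes of proliferation were lower on the hindbrain side. Of 20 mitosis genes 20 were lower on the hindbrain side, and of 22 DNA replication genes 20, with median differences of -1.84 and -1.70. Top2a, which untangles chromosomes, was at 393, 643, 56.4 and 123 CPM in GSC1 tumours 1 to 4 against 519.8, 301 and 168 CPM in GSC2. Ccnb1, the mitotic cyclin, was at 98.9, 132, 38.7 and 45.5 CPM against 121, 78.2 and 92.1 CPM in GSC2. Pcna, the sliding clamp of replication, was at 304, 320.3, 141 and 146 CPM and Mcm6, a helicase subunit, at 362, 428, 88.8 and 113 CPM against 348, 209 and 242 CPM in GSC2. Only 1 mitosis gene and 3 replication genes were 2-fold lower than in all other 5 tumours, although without tumour 4 these counts were 17 and 10. Among the rank-named genes Cenpe, a kinesin of the kinetochore, was at 81.6, 144, 1.75 and 7.23 CPM and Kif15, a spindle kinesin, at 38.6, 52.1, 2.34 and 3.85 CPM.

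Replication genes are classic targets of E2F factors. Searched for TTTCCCGC or TTTGGCGC on both strands, the same 250-base window held a match in 5 of the 19 replication genes with an entry (26.3%), against 1.35% of all 27025 promoters and 2.45% of those of measured genes. Mcm6 is shown because it holds 2, on chromosome 1 at chr1:128359706-128359955, minus strand, with the matches in capitals.
Mcm6: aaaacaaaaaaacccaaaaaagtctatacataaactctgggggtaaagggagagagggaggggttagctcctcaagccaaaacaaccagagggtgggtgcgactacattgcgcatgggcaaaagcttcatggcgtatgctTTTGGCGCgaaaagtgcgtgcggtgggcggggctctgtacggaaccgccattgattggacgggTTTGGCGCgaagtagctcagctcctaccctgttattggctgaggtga

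The 2 widest gaps among the 20 listed mitosis genes were in long transcripts. Cenpe, no member of that list, had a gap of -3.41 and a transcript of 7910 bases. Mki67, whose transcript has 10061 bases, was measured at 121, 231, 3.18 and 5.66 CPM in GSC1 tumours 1 to 4, a gap of -4.30, and at 8.82 CPM in GSC2 tumour 3, which was low in long transcripts as were tumours 3 and 4. Cenpf (11130 bases) had a gap of -3.24 and was at 10.9 CPM in GSC2 tumour 3. Ube2c, with 2191 bases, was at 105, 131, 28.9 and 41.5 CPM, a gap of -1.33, and at 93.9 CPM in GSC2 tumour 3. After removal of each library's length trend 20 mitosis genes and 21 replication genes were lower, and 4 mitosis genes lower than in all other 5 tumours. Xist, the X-inactivation RNA of 17946 bases, was at 132, 229, 11.9 and 12.4 CPM and at 9.27 CPM in GSC2 tumour 3, and it overlaps an antisense gene. Snhg17 and Cntrl, also among the 12 lowest, had 2.55 and 3.21 CPM in GSC2 tumour 3.

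**Figure D5:**
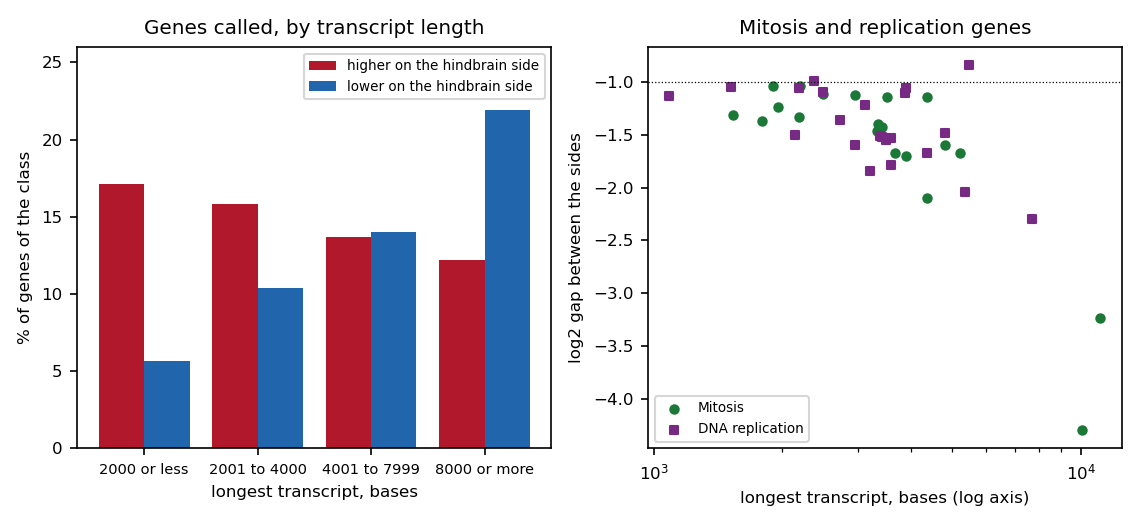
Left, percent of genes called higher or lower on the hindbrain side in 4 classes of transcript length (bars from 0). Right, log2 gap of each listed mitosis and DNA replication gene by its longest transcript (log axis). The dotted line at -1 is the limit of the call, and the 2 points lowest on the axis are Mki67 (-4.30) and Cenpf (-3.24).

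Stem and glioma progenitor genes were lower in 4 of 20 and higher in 0, with a median difference of -0.51. The lower count was 9 without tumour 1 and the higher count 4 without tumour 4, against 17.4% and 19.6% of all genes past the level limit. The lower ones were Nes, the stem cell filament, at 544, 662, 116 and 148 CPM in GSC1 tumours 1 to 4, Hmga2, a chromatin protein of fetal stem cells, at 537, 721, 22.6 and 85.9 CPM, Sox4 at 310.4, 387, 66.2 and 89.9 CPM and Sox11 at 9.44, 12.4, 1.35 and 1.52 CPM. Sox2 was at 122, 148, 70.7 and 72.6 CPM, Pdgfra at 69.4, 71.0, 67.0 and 57.7 CPM and Egfr at 35.1, 50.2, 23.1 and 21.9 CPM, none of them called. Normal oligodendrocyte precursors also express Olig2 and Pdgfra, so these genes do not measure tumour cells alone.

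Of 18 feedback and output genes of MAPK signalling, a pathway driven by Ras, 8 were lower and 0 higher. Dusp6, an ERK phosphatase induced by ERK itself, was at 519.5, 594, 148 and 173 CPM in GSC1 tumours 1 to 4 against 648, 422 and 389 CPM in GSC2. Fosl1, an AP-1 subunit, was at 62.5, 78.9, 4.85 and 13.8 CPM, Egr1 at 199.8, 304, 45.2 and 60.9 CPM and Myc at 87.2, 109.7, 24.1 and 34.4 CPM. Spred1 (279, 382, 236 and 217 CPM) was not called. Among 6 genes of the line labels, Trp53 was lower (221, 236, 77.2 and 84.7 CPM), while Hras was at 82.1, 66.5, 131 and 119 CPM. Gene totals mix tumour and host reads and do not show a transgene of another species.

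Meningeal fibroblast genes were higher in 9 of 13 with 0 lower. Aldh1a2, which makes retinoic acid in the meninges, was at 6.60, 5.80, 144 and 96.6 CPM in GSC1 tumours 1 to 4 against 12.9, 19.9 and 20.1 CPM in GSC2. Ptgds, a prostaglandin synthase of the arachnoid, was at 57.6, 54.5, 602 and 2892 CPM and Igf2 at 5.36, 11.4, 157 and 549.6 CPM, both highest in tumour 4, while Col1a1 was at 100.3, 102, 758 and 232 CPM, highest in tumour 3. The contractile genes Acta2 (12, 11.8, 132 and 39.9 CPM) and Tagln (19.8, 13.7, 291 and 70.1 CPM) and the collagen cross-linker Lox (8.60, 7.64, 106 and 36.2 CPM) had the order of Col1a1. Skeletal muscle genes were near 0, Ckm at most 0.381 CPM in the 4 tumours.

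Of 15 endothelial genes 3 were higher, against 15.1% of all genes measured. The count was 5 without tumour 1 or without tumour 4, against 21.0% and 19.6% of all genes. Among the 3 was Slco1a4, a transporter of the blood-brain barrier, at 10.6, 11.3, 45.3 and 51.0 CPM. Pecam1 was at 26.6, 20.8, 31.5 and 38.5 CPM and Flt1, a receptor for VEGF, at 134, 199, 55.3 and 73.2 CPM. Vegfa itself was at 90.8, 103, 34.1 and 40.9 CPM and the hexokinase gene Hk2 at 61.3, 92.6, 19.7 and 27.7 CPM. These were the 2 of 15 hypoxia and glycolysis genes called lower, with 0 higher, against 11.2% of all genes measured. The lower count was 5 without tumour 1 or without tumour 4, against 17.4% and 17.0% of all genes. Matrix genes went both ways, 3 of 16 higher and 5 lower. Col4a1, a basement membrane collagen, was at 475, 553, 82.7 and 144 CPM and Fn1, fibronectin, at 1897, 3183, 799 and 719.7 CPM, and GSC2 tumour 3 had 108 and 290.3 CPM of them. Plau, the urokinase gene, was at 213, 282, 42.7 and 50.4 CPM. Of 12 red and marrow blood cell genes 5 were higher and 0 lower. The higher ones include all 4 haemoglobin genes, with Hbb-bs at 23.5, 11, 138 and 109 CPM against 80.6, 283 and 138 CPM in GSC2. The haemoglobin copies share sequence, which makes the single values uncertain.

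Some of the widest gaps lay outside every list. Wif1, a secreted inhibitor of Wnt ligands, was at 0.290, 0.184, 56.0 and 55.7 CPM in GSC1 tumours 1 to 4 and at most 2.35 CPM in GSC2, so the nearest tumours of the sides were 192-fold apart. Pygm, a glycogen phosphorylase of muscle and astrocytes, was at 1.80, 1.32, 104 and 101 CPM, and Paqr6, a membrane progestin receptor, at 0.753, 0.367, 43.2 and 38.1 CPM. Tumours 3 and 4 were nearly equal in all 3. Calb2, the calcium buffer calretinin, was at 1.59, 1.62, 98.8 and 104 CPM, but GSC2 tumours 2 and 3 were at 90.7 and 103 CPM. Inka2, a kinase inhibitor gene, was at 53.7, 54.0, 11.2 and 13 CPM.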

How the data were processed

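The authors deposited 1 table of read counts per tumour, and the submitters' processing notes name TopHat2 2.0.11, HTSeq and the builds mm9 and dm3, with no role. No source used here gives the HTSeq version or its strand setting. The 5 summary lines below the 37620 Ensembl identifiers of each table were left out of the gene counts. In them, reads on no gene were 7.88, 10.4, 6.3 and 6.19% of the library in GSC1 tumours 1 to 4. The GSC2 tumours had 8.94, 7.74 and 14.2%. Alignments that were not unique made up 16.4, 19.7, 13.4 and 12.8% in GSC1 and 17.8, 17.3 and 21% in GSC2. Both were lowest in tumours 3 and 4, and their part in the differences between the sides was not tested.

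Counts were scaled with TMM in edgeR 4.0.16 (R 4.3.3) over 16068 genes kept by filterByExpr, and handled as log2(CPM + 0.5) in Python 3.11.15. Genes needed a mean of 1 CPM over the 4 GSC1 tumours. No p-values were computed. Transcript lengths came from GENCODE M21, for 98.2% of genes tested, symbols from gene name tables and promoters from RefSeq. The 34 lists hold 569 genes, of which 564 were found and 483 tested. Members and lists were chosen with earlier results of these data known, so counts over them are no independent sign of a difference.

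Genes were named by rule: the 12 per direction with the widest gaps between the sides and against all other 5 tumours (at least 5 CPM in both tumours of the higher side), up to 4 called members per list, and the 8 and 6 per direction that differ most within a side. Other genes are list members given to show a range, chosen after their values were seen, and some genes are not reported here. Alternatives were other scalings, filters, pseudocounts and gaps, a length correction and each GSC1 tumour left out.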

Additional observations from a re-analysis of the deposited data

Results flagged for a closer look

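Of 202 values examined over the 4 GSC1 tumours (34 list levels and 168 named genes), 5 had 1 tumour far from the other 3 relative to the whole range. All 5 are genes with GSC1 tumour 4 as the highest: Kcne2 at 83.8 CPM, Kcnj13 at 81.3 CPM, Clic6 at 219 CPM and Slc4a5 at 71.7 CPM, all known from choroid plexus, and Pcp2, of Purkinje cells, at 67.4 CPM. The next highest GSC1 tumour had 0.0397 CPM of Kcne2, 0.119 CPM of Kcnj13, 1.31 CPM of Clic6, 0.397 CPM of Slc4a5 and 0.0397 CPM of Pcp2. Chance sets apart about 1 in 20 such groups. These genes were named because tumours 3 and 4 differ in them, so their number is no independent sign. The cause was not tested.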

How the results depend on the processing

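The 4 counts of genes called, 2200 higher, 1639 lower, 318 higher and 168 lower than in all other 5 tumours, moved by more than 1.5 times under the following settings. A 4-fold gap gave 678, 170, 55 and 12, and any gap above 0 gave 5780, 6085, 3145 and 3139. Genes with transcripts of at most 2000 bases, an alternative chosen after seeing the data, gave 499, 166, 79 and 25, since fewer genes are counted. A pseudocount of 2 CPM gave 98 lower than in all other 5 tumours. With 1 GSC1 tumour left out the counts ran from 2334 to 3065, 1788 to 2532, 323 to 737 and 181 to 577, a larger count being built in because fewer tumours must separate. The lower count was 2532 without tumour 1 and 2472 without tumour 4, the higher count against all other 5 was 539 without tumour 3 and 737 without tumour 4, and the lower one 577 without tumour 4. Total-count scaling gave 1897 higher and 2004 lower, so lower calls outnumber higher ones under it. With the length trend removed 2059 of the 2200 and 1461 of the 1639 genes were called again. No gap of a called named gene changed sign under the other scalings, pseudocounts or the length correction. Genes under 1 CPM are limited by depth, since 3 reads are 0.0869 to 0.143 CPM in the GSC1 libraries. No paired analysis was possible because replicate numbers name tumours and do not pair the sides.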
